A study of Mus musculus with 12 samples.

Results

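Skin at 14 days after a thermal injury was compared with skin at 2 hours after it, a late point of healing against the acute state. The comparison uses 6 of the 12 arrays of the study, the 3 labelled 14 days and the 3 labelled 2 hours, and every probe set that names exactly 1 mouse gene. All samples were murine skin, labelled with a set time after a thermal injury, and total RNA of each sample was read on an Affymetrix oligonucleotide array of its own. The remaining 6 arrays, 3 at 0 hours and 3 at 3 days, entered the fit to estimate the spread between arrays. They also counted in the lower limit set on the signal, in the choice of probe sets tested and read, and in the covariate fits below. Their values are given where they place a gene in time. Whether skin labelled 0 hours had already been burnt is unstated, so it is used below as the earliest time point and not as uninjured skin. The labels give no strain, sex, age, burn depth or genotype, and no other treatment that the groups share. Nor do they tie replicates to individual animals, so every p-value below reflects the spread among these samples only, and that spread could be technical.

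As background, cells exposed to heat and injury switch on a fast program of heat shock proteins, metal-binding metallothioneins and immediate-early transcription factors, and the injured animal releases glucocorticoids that induce a further set of genes. Chemokines made in the first hours call monocytes and neutrophils into the wound. Over the following days keratinocytes at the wound edge take on an activated keratin program and close the wound, fibroblasts lay down collagen and other matrix, and the epidermis rebuilds its barrier. Hair follicles pass through a cycle of growth and rest that runs on its own schedule in mouse skin, and in growth they express keratins of the inner root sheath and hair shaft. Whole skin holds all of these cells together with fat, muscle and blood, and in such bulk samples fewer cells of a type and less RNA per cell cannot be told apart.

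The arrays had medians of 448.4 to 496.4 signal units, and 5467 probe sets for 4806 genes were bright enough to be tested. Spearman correlations were 0.9257 to 0.9406 among the 2 hours arrays and 0.9281 to 0.9444 among the 14 days arrays, against 0.8247 to 0.8929 between them. The Gapdh control probe sets separated the time points. Their log2 signal ratio of the 3′ to the 5′ end of the transcript, a measure that moves with RNA quality, was 1.054, 1.603 and 1.968 at 2 hours and 0.163, 0.163 and 0.301 at 14 days. The difference was −1.33 (exact permutation test, two-sided, p = 0.1, the smallest value that 3 against 3 arrays can give). The same ratio of beta-actin was 0.74 ± 0.54 (SD, n = 3) at 2 hours and 0.35 ± 0.07 at 14 days, and its groups overlapped. When the Gapdh ratio entered the fit as a covariate, 19 of the 490 calls described next remained, so RNA quality and time cannot be told apart for most of them. The genes that kept their call under that covariate are named with their groups.

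Of the probe sets tested, 490 (8.96%) differed between 14 days and 2 hours at a Benjamini-Hochberg adjusted p under 0.05 in limma, 295 higher and 195 lower at 14 days, and 1330 had an unadjusted p under 0.05. Taking the brightest probe set of each gene, 427 of 4806 genes (8.88%) were called. Of these, 250 genes (5.2%) rose and 177 (3.68%) fell, while the median change over all genes was 0.003 on the log2 scale. The shares of 5.2% and 3.68% are those to hold beside the counts of called list members below. The values of the groups did not overlap for 1669 genes (34.7%). A rise of at least 2-fold was seen for 136 genes and of at least 4-fold for 24, and a fall of at least 2-fold for 94 and of at least 4-fold for 16. Of the risers, 81 had at least 1 array at the floor of 225 signal units at 2 hours, so their folds are lower bounds, written below as at least. Arrays set to the floor show no spread among themselves. The SE and adjusted p of such genes therefore leave out the spread below the floor and may look too small. Of the called genes, 63 had further tested probe sets, and for 13 at least 1 of these changed with the opposite sign. Probe sets naming several genes were called in 21 of 222 cases (9.46%) and those naming none in 35 of 320 (10.9%). With 1 array left out the number of probe sets called dropped to 210 (2 hours replicate 2), 190 (2 hours replicate 3), 217 (14 days replicate 1) or 199 (14 days replicate 2).

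**Figure D1:**
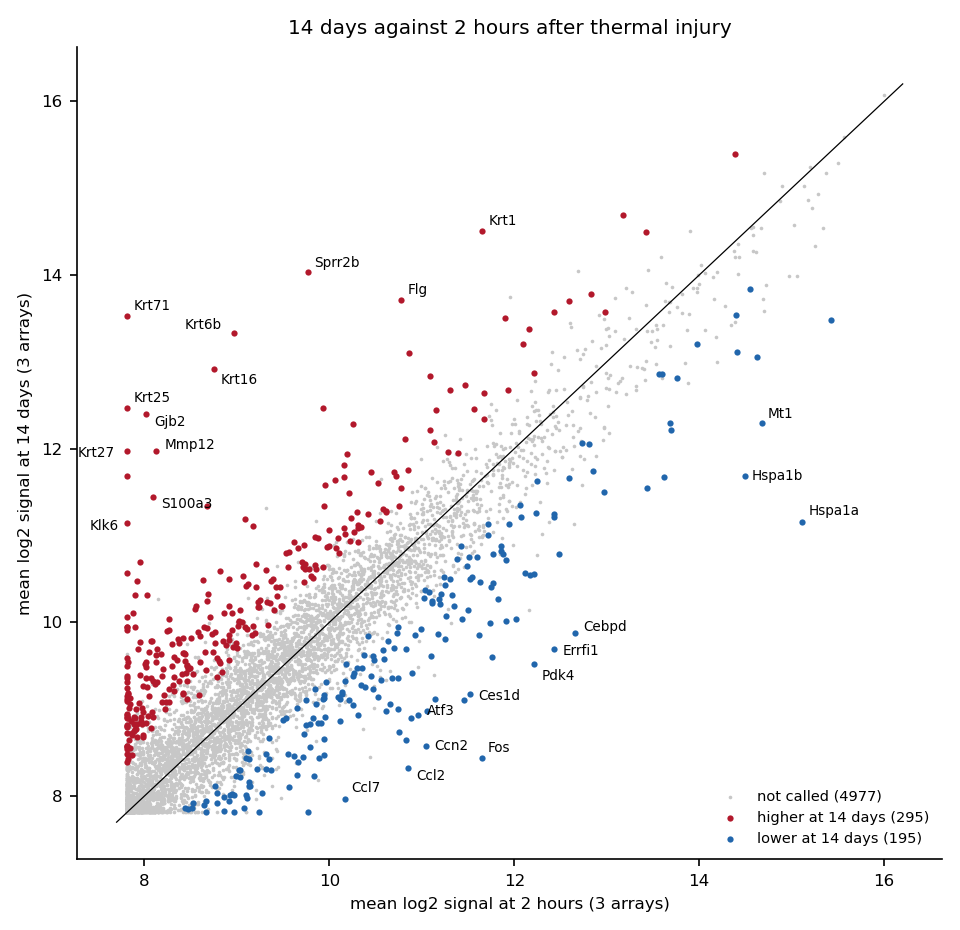
Mean log2 signal of each tested probe set at 2 hours (horizontal axis, 3 arrays) and at 14 days (vertical axis, 3 arrays), with the line of equal signal. Red points are the 295 probe sets called higher at 14 days and blue points the 195 called lower. Keratins, Gjb2, Sprr2b and Mmp12 lie far above the line, and Hspa1a, Fos, Ccl2 and Ccl7 far below it.

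The 12 genes that rose most were Krt71, Krt25, Gjb2, Krt6b, Sprr2b, Krt27, Krt16, Mmp12, S100a3, Klk6, Flg and Krt1, from 5.71 for Krt71 down to 2.85 for Krt1 on the log2 scale. Of the 12, 11 code for proteins of hair, wound-activated epidermis or the epidermal barrier, and the remaining gene, Mmp12, codes for the macrophage metalloelastase. The 12 that fell most were Hspa1a, Fos, Hspa1b, Cebpd, Errfi1, Pdk4, Ccl2, Ccn2, Mt1, Atf3, Ces1d and Ccl7, from −3.95 for Hspa1a to −2.20 for Ccl7. They include stress-inducible chaperones, immediate-early factors, glucocorticoid-responsive genes and monocyte chemokines. Ces1d, a carboxylesterase abundant in fat and liver, lost its call without 2 hours replicate 2 or 3 or 14 days replicate 1 or 2 (adjusted p 0.089 to 0.11), and its further probe set stood at −1.74 (adjusted p = 0.052).

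**Figure D2:**
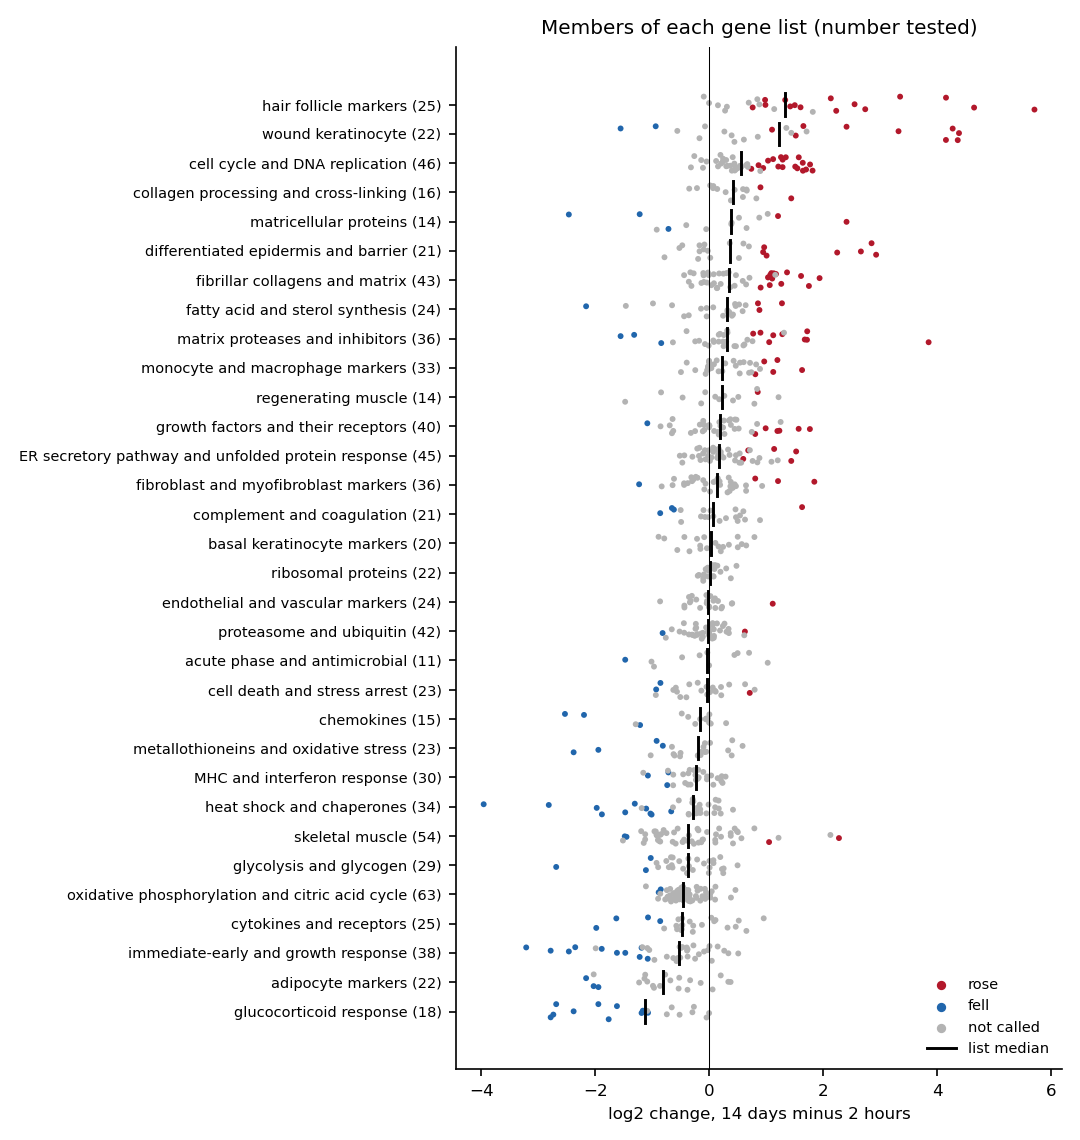
Log2 change from 2 hours to 14 days (horizontal axis) of every tested member of the lists with at least 10 tested genes, 1 point per gene, with the number tested beside the list name. Red members rose, blue members fell, grey members were not called, and the black bar is the list median. Medians run from 1.34 for hair follicle markers to −1.12 for glucocorticoid response genes.

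Of 34 heat shock proteins and other chaperones tested, 10 were lower at 14 days (29.4%, against 3.68% of all genes), 24 were not called and none rose. Of all 34 changes 27 were negative and 7 positive, and the list median was −0.283 on the log2 scale against 0.003 over all genes. The called members were the inducible Hsp70 genes Hspa1a and Hspa1b, the Hsp90 gene Hsp90aa1, the Hsp110 gene Hsph1, the cochaperones Dnaja1 and Bag3, the mitochondrial chaperonin pair Hspd1 and Hspe1, the small heat shock gene Cryab and the constitutive Hsp70 gene Hspa8. A further probe set of Hspd1 stood at −0.01 (adjusted p = 0.99), so its probe sets disagree, while that of Bag3 fell by 2.19. In the 250 bases before the RefSeq start sites (GRCm38.p6), the stretches below of 3 of these genes hold the letters GAANNTTC or TTCNNGAA, the core of the element bound by heat shock factors, which are shown in capitals. They are printed because these letters recur upstream of most of the chaperones that fell. Hspa1a lies on chr17:34972157-34972406 (minus strand), Hsph1 on chr5:149636337-149636586 (minus strand) and Hspe1 on chr1:55087898-55088147 (plus strand).
Hspa1a: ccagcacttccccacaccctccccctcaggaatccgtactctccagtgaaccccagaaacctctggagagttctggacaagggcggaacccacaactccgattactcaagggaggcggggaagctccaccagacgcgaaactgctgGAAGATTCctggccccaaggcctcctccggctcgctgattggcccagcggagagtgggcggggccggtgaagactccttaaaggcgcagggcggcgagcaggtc
Hsph1: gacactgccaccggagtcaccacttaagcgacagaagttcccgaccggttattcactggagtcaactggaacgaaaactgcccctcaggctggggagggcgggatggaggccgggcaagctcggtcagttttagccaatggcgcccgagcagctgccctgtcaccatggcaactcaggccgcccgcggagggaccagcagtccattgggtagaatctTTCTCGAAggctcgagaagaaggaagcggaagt
Hspe1: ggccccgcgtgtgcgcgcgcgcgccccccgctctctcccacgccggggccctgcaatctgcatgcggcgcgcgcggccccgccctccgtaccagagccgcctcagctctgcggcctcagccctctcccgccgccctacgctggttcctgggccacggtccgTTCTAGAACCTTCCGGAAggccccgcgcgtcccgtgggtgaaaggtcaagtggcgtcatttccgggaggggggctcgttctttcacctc

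The match lay 104 to 97 bases before the start of Hspa1a and 33 to 26 bases before that of Hsph1, and in Hspe1 3 overlapping matches covered bases 89 to 72. The stretch of Hspe1 also runs into that of Hspd1, since both genes are transcribed away from each other from a shared region. Of the 10 fallen chaperone genes, 7 had a promoter entry and 6 of these held a match (Dnaja1, Hspa1a, Hspa1b, Hspd1, Hspe1 and Hsph1). Of the 24 members not called, 20 had an entry and 5 held a match. Among all 32851 promoters of this length the share was 12.8%, counted by promoter entry, whereas a gene was counted if any of its entries held a match. The upstream stretches of Hspa1a and Hspa1b are identical at 247 of 250 positions, and Hspd1 and Hspe1 share theirs in part, so the 6 matches are not independent. A match is a description of letters and no measurement of binding.

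Hspa1a had a signal of 34793, 48762 and 26414 at 2 hours and 2007, 2264 and 2645 at 14 days. The groups were far apart, and the 14 days arrays lay within the range of the 0 hours arrays (1664, 3073 and 1787). The fall was 3.95 ± 0.26 on the log2 scale (SE, 15.5-fold, adjusted p = 5.4e-06), the largest of all called genes. Hspa1b, whose transcript is almost the same as that of Hspa1a so that probes may read both, fell by 2.81 ± 0.32 (adjusted p = 0.00022). Hsp90aa1, the stress-inducible Hsp90, had signals of 10606, 15714 and 8084 at 2 hours and 2433, 3509 and 3159.8 at 14 days and fell by 1.88 ± 0.29 (3.68-fold, adjusted p = 0.0023). Hsph1 had signals of 4056, 7494 and 2326 at 2 hours and 1105, 1182 and 896 at 14 days and fell by 1.97 ± 0.32 (3.92-fold, adjusted p = 0.0032). In all 3 of Hspa1a, Hsp90aa1 and Hsph1 the highest array was 2 hours replicate 2 and the lowest of the 2 hours arrays was replicate 3. Hspa5, the Hsp70 of the endoplasmic reticulum, had signals of 2852, 2157 and 1981 against 2815, 2776 and 2201, which overlapped, and a change of 0.17 ± 0.19 (adjusted p = 0.67). With 14 days replicate 2 left out, 4 of the 10 falls were called. The calls of Hspd1, Hspe1, Bag3 and Hspa8 were lost without 2 hours replicate 1 or 2 or 14 days replicate 1 or 2 (adjusted p 0.06 to 0.18), that of Cryab without 2 hours replicate 2 or 3 or 14 days replicate 1 or 2 (0.079 to 0.12), and that of Dnaja1 without 14 days replicate 2 (0.061). The first 3 of these were also lost without 14 days replicate 3 (0.063 to 0.11), while Hspa1a and Hsp90aa1 kept theirs under the Gapdh covariate.

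Mt1 and Mt2, metallothioneins that bind zinc and copper and are induced by stress and glucocorticoids, were lower at 14 days. The other metallothioneins tested, Mt3 and Mt4, had changes of −0.14 ± 0.22 and 0.59 ± 0.31 on the log2 scale and were not called (adjusted p 0.768 and 0.267). Of the 23 members of the metallothionein and oxidative stress list, 4 fell and none rose, with a list median of −0.194. Mt1 had signals of 20559.8, 29515 and 29589 at 2 hours and 5639.6, 4558 and 4986 at 14 days, and no array of 1 group came near the other. It fell by 2.38 ± 0.23 on the log2 scale (5.19-fold, adjusted p = 6.2e-05). Mt2 had signals of 37421, 45004 and 50078 at 2 hours and 11305, 11319.6 and 11603 at 14 days and fell by 1.94 ± 0.19 (3.84-fold, adjusted p = 7.7e-05). The 14 days arrays of Mt2 stood at 11305, 11319.6 and 11603, still above the 0 hours arrays at 8961, 8177 and 8753. Hmox1, the inducible haem oxygenase, fell by 0.92 ± 0.21 (1.89-fold, adjusted p = 0.018) and Sod1, the copper-zinc superoxide dismutase, by 0.81 ± 0.21 (1.76-fold, adjusted p = 0.029). The mean of Sod1 was 11.94 on the log2 scale at 0 hours and at 2 hours alike. Hmox1 lost its call without 2 hours replicate 1 or 2 or 14 days replicate 2 (0.057 to 0.082) and Sod1 without any array but 2 hours replicate 1 (0.052 to 0.12), while Mt1 and Mt2 kept theirs under the Gapdh covariate.

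Of 38 immediate-early and growth response genes tested, 10 were lower at 14 days, 28 were not called and none rose. Immediate-early genes such as Fos and Egr1 are transcribed within minutes of a stimulus and have short-lived transcripts, which need not hold for every list member. Of the 38 changes 32 were negative, and the list median was −0.534. Fos, a subunit of the AP-1 transcription factor, had signals of 4096, 4919 and 1638 at 2 hours and 335, 323 and 386 at 14 days. It fell by 3.21 ± 0.61 on the log2 scale (9.25-fold, adjusted p = 0.0077). At 0 hours the signals of Fos overlapped with those at 2 hours, at 8668, 1585 and 3998, so its low point in the study was 14 days. Atf3, a stress-induced transcription factor, had signals of 3101, 4183 and 1708 at 2 hours and 489.6, 535 and 639.9 at 14 days, and its 2 hours arrays stood above every other array of the study. It fell by 2.35 ± 0.33 (5.09-fold, adjusted p = 0.0012), while a further probe set stood at −0.90 and was not called (adjusted p = 0.076). Egr1, a zinc finger factor of the same early wave, Nr4a1, an orphan nuclear receptor, and Dusp1, a phosphatase that switches off MAP kinases, fell as well, with changes of −1.88 ± 0.43, −1.47 ± 0.29 and −1.62 ± 0.33 (adjusted p 0.017, 0.0091 and 0.011). The 0 hours signals of Egr1 (3113, 1052 and 3010) overlapped with those at 2 hours (3207, 6779 and 2598). So did those of Dusp1, at 4537, 2470 and 3782.5 against 4124, 5343 and 4417. Ccn2 and Ccn1, the secreted factors CTGF and CYR61 that are induced by growth factors and tension, fell by 2.46 ± 0.38 (5.51-fold, adjusted p = 0.0022) and 1.22 ± 0.19 (at least 2.33-fold, adjusted p = 0.0023). Without 2 hours replicate 2, 6 of the list were called, and Egr1 (0.081) and Dusp1 (0.053) were not. Egr1 was also lost without 14 days replicate 1 or 2 (0.064 and 0.058) and Dusp1 without 14 days replicate 1 (0.057). Fos, Atf3 and Cebpd kept their call under the Gapdh covariate.

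Among glucocorticoid-responsive genes the share that fell was the highest of any list with more than 3 tested members. Of 18 tested, 10 fell (55.6%, against 3.68% of all genes), none rose, and all 18 changes had a negative sign, with a median of −1.124. Mt1, Mt2, Cebpd, Dusp1 and Sgk1 also stand on the lists above. Cebpd, a transcription factor of the acute phase response, had signals of 5728, 6616 and 7140.2 at 2 hours and 918, 784 and 1162 at 14 days and fell by 2.78 ± 0.28 on the log2 scale (6.87-fold, adjusted p = 9.6e-05). Errfi1, a feedback inhibitor of the EGF receptor, had signals of 5261, 5352 and 5973 at 2 hours and 855, 863 and 775 at 14 days and fell by 2.73 ± 0.38 (6.65-fold, adjusted p = 0.0012). The replicates of Errfi1 agreed closely at both times, with an SD of 0.10 at 2 hours and 0.09 at 14 days on the log2 scale. A further probe set of Errfi1 fell too, by 1.59. Pdk4, the kinase that shuts down pyruvate oxidation in fasting and stress, had signals of 4064, 3862 and 6754 at 2 hours and 741, 476 and 1135 at 14 days and fell by 2.68 ± 0.35 (6.42-fold, adjusted p = 0.00083). The transcriptional repressor Zbtb16 (−1.76 ± 0.44), the kinase Sgk1 (−1.19 ± 0.27) and the FK506-binding protein Fkbp5 (−1.16 ± 0.28) fell with adjusted p of 0.025, 0.018 and 0.021. Each of those 3 lost its call without 2 hours replicate 3 (adjusted p 0.08 to 0.11) and without 14 days replicate 2 (0.068 to 0.1), and 7 list members were called without either. Fkbp5 and Zbtb16 were also lost without 14 days replicate 1 (0.083 and 0.12), Sgk1 and Zbtb16 without 2 hours replicate 2 (0.057 and 0.061), and Zbtb16 without 2 hours replicate 1 (0.05). Mt1, Mt2, Cebpd and Errfi1 kept theirs under the Gapdh covariate.

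Signals that recruit and activate leukocytes were lower at 14 days where they were called. Of 15 chemokines, 3 fell and none rose, with a median of −0.157, and all 3 were CC chemokines, of which Ccl2 and Ccl7 attract monocytes. Ccl7 had signals of 1452, 1047 and 997 at 2 hours and 193, 310.4 and 126 at 14 days, with 2 of the 14 days arrays at the floor. It fell by 2.20 ± 0.44 on the log2 scale (at least 4.58-fold, adjusted p = 0.0098). Ccl2 had signals of 2029.7, 2780.2 and 1125 at 2 hours and 355, 356 and 260.4 at 14 days and fell by 2.53 ± 0.63 (5.77-fold, adjusted p = 0.026). At 3 days Ccl2 ran from 641 to 6325, so the 14 days arrays were the low point of the burnt skin. Ccl9 fell by 1.21 ± 0.30 (adjusted p = 0.026), and its spread at 2 hours was wide, from 3317 to 9665. Ccl2 lost its call without 2 hours replicate 1 or 2 or any 14 days array (adjusted p 0.069 to 0.11) and Ccl9 without 2 hours replicate 1 or 3 or any 14 days array (0.064 to 0.083), although Ccl2 kept its call under the Gapdh covariate.

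Of 25 cytokines and receptors, 4 fell and none rose, with a median of −0.47. Osmr, the oncostatin M receptor subunit, had signals of 1308, 1565 and 1856 at 2 hours and 591, 510.5 and 427 at 14 days and fell by 1.63 ± 0.25 on the log2 scale (3.09-fold, adjusted p = 0.0021). Its lowest 2 hours array was above its highest 14 days array and above every 0 hours array. Il1r2, the decoy receptor for interleukin 1, fell by 1.07 ± 0.19 (adjusted p = 0.0054), with a further probe set at −0.44 that was not called (adjusted p = 0.27), and Csf1, the growth factor of macrophages, by 0.86 ± 0.16 (adjusted p = 0.0065). Il1r2 was no higher at 2 hours than at 0 hours, with means of 10.93 and 11.08. Socs3, the feedback inhibitor of receptors that signal through STAT3, fell by 1.98 ± 0.48 (adjusted p = 0.024), with a further probe set at −2.02 that was also called. The first of these Socs3 calls was lost without any array but 2 hours replicate 1 (0.051 to 0.11). Fgl2, a prothrombinase of activated endothelium and macrophages that stands on no list and was named after its values were seen, had signals of 1975, 2487 and 1596 at 2 hours and 385, 545 and 561 at 14 days and fell by 2.02 ± 0.24 (4.05-fold, adjusted p = 0.00038).

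Smaller falls were measured in other immune groups. Of 30 MHC and interferon response genes 3 fell and none rose (median −0.236), namely the interferon-inducible Ifi204 (−1.07 ± 0.20, adjusted p = 0.0069), the class I light chain B2m (−0.73 ± 0.18, adjusted p = 0.026) and the class I heavy chain H2-K1 (−0.71 ± 0.18, adjusted p = 0.029), whose further probe set stood at −0.66 (adjusted p = 0.058). Of 21 complement and coagulation genes, the regulators Cd59a (−0.86 ± 0.17) and Serping1 (−0.62 ± 0.15) and the component C2 (−0.65 ± 0.18) fell, with adjusted p of 0.01, 0.024 and 0.043, and C1qa rose. The mast cell chymase Cma1 had signals of 3521, 2754 and 3035 at 2 hours and 1572, 1801 and 1794 at 14 days and fell by 0.84 ± 0.19 (adjusted p = 0.016). The other 3 tested mast cell markers also had a negative change and were not called. All of these calls except that of Ifi204 were lost without at least 1 of the 6 arrays, with adjusted p between 0.051 and 0.16, and none of these lists kept a call under the Gapdh covariate. Cd59a was lost without 2 hours replicate 3, Cma1 without 2 hours replicate 1 or 3 or 14 days replicate 1, and the others without at least 4 of the arrays.

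**Figure D3:**
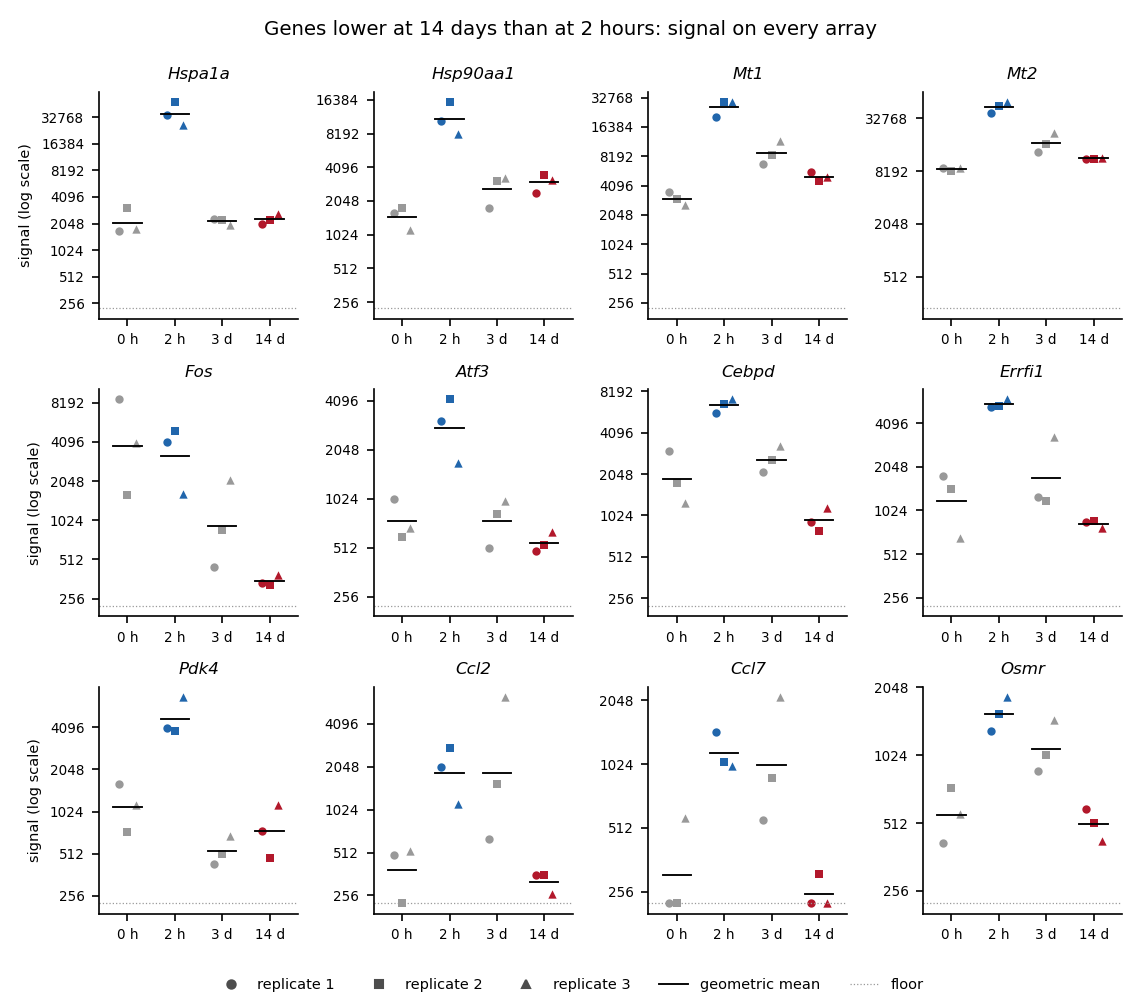
Deposited signal (vertical axis, log scale, set to the floor where lower) of 12 genes that fell, on every array at 0 hours, 2 hours, 3 days and 14 days (horizontal axis), with a symbol for each replicate number, a bar for the geometric mean and a dotted line for the floor of 225. Blue marks the 2 hours arrays and red the 14 days arrays. Blue lies above red in every panel without overlap. In the Hspa1a, Hsp90aa1, Mt1, Mt2, Atf3, Cebpd, Errfi1 and Pdk4 panels the 2 hours arrays lie above all others.

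Hair follicle genes held 4 of the 12 largest rises, Krt71, Krt25, Krt27 and S100a3. Of 25 members tested, 15 rose (60.0%, against 5.2% of all genes), none fell, and the median was 1.335. Most rose from the floor, so their folds are lower bounds. Krt71, Krt25, Krt27 and Krt72 code for keratins of the inner root sheath, the layer that guides the growing hair shaft, Krt31, Krt33b and Krt35 for keratins of the hair shaft, and Krtap3-1 and Krtap8-1 for proteins that link shaft keratins. The 250 bases before the RefSeq starts of Krt71 on chr15:101743098-101743347 and Krt25 on chr11:99322952-99323201 (GRCm38.p6, both minus strand) are printed because they are the genes with the largest rises of this list. Capitals mark the letters TATAAA of a TATA box, CCAAT of a CCAAT box and CTTTGNT, a core of sites for LEF and TCF factors, searched on both strands.
Krt71: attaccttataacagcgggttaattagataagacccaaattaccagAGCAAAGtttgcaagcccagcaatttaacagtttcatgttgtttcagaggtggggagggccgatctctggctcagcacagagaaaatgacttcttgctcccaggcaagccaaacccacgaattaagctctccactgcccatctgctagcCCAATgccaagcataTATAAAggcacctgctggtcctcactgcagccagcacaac
Krt25: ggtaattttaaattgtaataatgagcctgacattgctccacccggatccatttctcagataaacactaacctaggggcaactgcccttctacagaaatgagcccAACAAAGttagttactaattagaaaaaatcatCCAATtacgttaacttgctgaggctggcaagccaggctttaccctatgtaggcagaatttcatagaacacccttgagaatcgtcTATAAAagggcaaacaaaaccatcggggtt

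Both stretches hold all 3 motifs, with TATAAA 40 to 35 bases before the start of Krt71 and 30 to 25 before that of Krt25. Of the 15 risen hair genes 13 had a promoter entry, of which 10 held TATAAA, 10 held CCAAT and 3 held CTTTGNT. Of the 10 members not called 7 had an entry, of which 3, 1 and 0 held them. Over all 32851 promoters the shares were 12.4%, 33.8% and 16%, counted by promoter entry, whereas a gene was counted if any of its entries held the letters. These counts describe letters in a window and were not tested.

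Krt71 had signals of 168, 49.6 and 34 at 2 hours and 7448, 12179 and 18029.5 at 14 days. All 3 arrays at 2 hours were below the floor, and the rise was 5.71 ± 0.50 on the log2 scale (at least 52.3-fold, adjusted p = 3.1e-05). At 0 hours Krt71 stood at 313, 1886 and 1283, between both groups. Krt25 had signals of 26, 10.2 and 37 at 2 hours and 3321, 5811 and 9371 at 14 days and rose by 4.65 ± 0.50 (at least 25.1-fold, adjusted p = 0.00015). Krt27 rose by 4.16 ± 0.58 (at least 17.8-fold, adjusted p = 0.0012). S100a3, a calcium-binding protein of the hair cuticle, had signals of 201, 278 and 322 at 2 hours and 1512, 2745 and 5174 at 14 days and rose by 3.35 ± 0.42 (at least 10.2-fold, adjusted p = 0.00058), and its further probe set rose by 2.10. Krt35 rose by 2.55 ± 0.34 (at least 5.86-fold, adjusted p = 0.00095), and so did its further probe set, by 2.75. Ptch1, the receptor of hedgehog signals that drive follicle growth, rose from below the floor on all 2 hours arrays to 554, 693 and 479, a change of 1.34 ± 0.19 (at least 2.52-fold, adjusted p = 0.0014), while a further probe set stood at 0.12. Hair keratins resemble each other in sequence, and reads of 1 by the probes of another were not tested. Without 2 hours replicate 2 or 3 the list kept 10 calls. Krt31 lost its call without any 2 hours array (0.057 to 0.079) and the transcription factor Dlx3, which rose by 1.60 ± 0.36, without 2 hours replicate 2 or 3 or 14 days replicate 2 or 3 (0.059 to 0.079). Krt71, S100a3 and Krt35 kept theirs under the Gapdh covariate.

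Of 4 melanocyte markers tested, 2 were higher at 14 days as well and none fell. Pmel, which builds the fibrils on which melanin is deposited, had signals of 259, 230.2 and 146 at 2 hours and 667, 1160.2 and 1231 at 14 days, and rose by 2.05 ± 0.22 on the log2 scale (at least 4.14-fold, adjusted p = 0.00016). Dct, the pigment enzyme dopachrome tautomerase, had signals of 396, 405 and 336 at 2 hours and 882, 1548 and 1155 at 14 days and rose by 1.62 ± 0.23 (3.08-fold, adjusted p = 0.0014). Neither gene stood apart at 0 hours or 3 days, where its mean was at most 8.63 on the log2 scale. Tyrp1, a related pigment enzyme, was below the floor on all 2 hours arrays and reached 232, 471 and 387, but was not called (0.63 ± 0.23, adjusted p = 0.1). The summed signal of the hair list ran from 10211 to 10880 at 2 hours and from 28591 to 73013 at 14 days, and that of the melanocyte list from 1425 to 1525 and from 2547 to 3974.

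Genes of the differentiated epidermis and its barrier were higher at 14 days for 7 of 21 members tested, and none fell, with a list median of 0.363. Flg, which codes for filaggrin, the protein that binds keratin filaments in the cornified layer, had signals of 1666, 2109.5 and 1549 at 2 hours and 13082, 12374 and 14871 at 14 days. It rose by 2.93 ± 0.24 on the log2 scale (7.62-fold, adjusted p = 2.1e-05), and its 14 days replicates lay within an SD of 0.14. Krt1, the type II keratin of the suprabasal layers, had signals of 4177, 2783 and 2875 at 2 hours and 23168, 19189 and 28164 at 14 days and rose by 2.85 ± 0.24 (7.21-fold, adjusted p = 3e-05). Casp14, the protease needed for filaggrin breakdown, had signals of 412, 429 and 390.1 at 2 hours and 2500.0, 2302 and 3042 at 14 days and rose by 2.66 ± 0.21 (6.33-fold, adjusted p = 2.1e-05). Rptn, coding for repetin of the cornified envelope, rose from below the floor on all 2 hours arrays by 2.25 ± 0.33 (at least 4.75-fold, adjusted p = 0.0016). The calcium-binding protein Calm4 rose by 1.01 ± 0.19 (adjusted p = 0.0077) and the desmosomal cadherin Dsc1 by 0.97 ± 0.26 (adjusted p = 0.038), though Dsc1 lost its call without any 1 of the 6 arrays (0.054 to 0.16). Krt10, the type I partner of Krt1, had signals of 24002, 27324 and 22418 against 21126, 22117 and 29999, which overlapped, with a change of −0.02 ± 0.19 (adjusted p = 0.97) that became 0.16 under quantile normalization. Flg, Krt1 and Casp14 kept their call under the Gapdh covariate. None of the 20 basal keratinocyte markers tested was called, with a median of 0.036, and their summed signal overlapped between the groups (74799 to 80329 at 2 hours and 64963 to 80978 at 14 days).

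The wound keratinocyte list, which holds keratins, envelope proteins and proteases of activated epidermis, had 9 risers and 2 fallers among 22 tested, with a median of 1.229. Gjb2, the gap junction protein connexin 26, had signals of 204, 285 and 271 at 2 hours and 7881, 3761 and 5335 at 14 days. It rose by 4.38 ± 0.36 on the log2 scale (at least 20.9-fold, adjusted p = 2.1e-05), and was as high at 3 days (5561, 5639 and 7051). Klk6, a kallikrein protease of the upper epidermis, was below the floor on all 2 hours and 0 hours arrays and reached 3435, 1299 and 2574, a rise of 3.32 ± 0.30 (adjusted p = 3.5e-05). Krt6b, a keratin of activated and hair-associated epidermis, had signals of 449, 593 and 474 at 2 hours and 35163, 3817 and 8187 at 14 days, and its 14 days arrays were spread widely. It rose by 4.36 ± 0.58 (20.6-fold, adjusted p = 0.00095), by 3.48 without 14 days replicate 1 and by 5.08 without 14 days replicate 2. Its partner Krt16 had signals of 744, 251 and 435 at 2 hours and 22710.4, 3424 and 5896 at 14 days and rose by 4.15 ± 0.56 (17.8-fold, adjusted p = 0.0011), by 3.38 without 14 days replicate 1 and by 4.74 without 14 days replicate 2. Sprr2b, a cornified envelope precursor whose near copies may share its probes, rose by 4.27 ± 0.71 (19.3-fold, adjusted p = 0.0035), and by 4.88 without 2 hours replicate 1. The lipid carrier Fabp5 rose by 1.65 ± 0.27 (adjusted p = 0.0032).

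Not every gene of activated keratinocytes was higher at 14 days. Serpinb2, an inhibitor of plasminogen activators, had signals of 4754, 4491 and 4101 at 2 hours and 1745, 1269.6 and 1565 at 14 days and fell by 1.55 ± 0.30 on the log2 scale (2.93-fold, adjusted p = 0.0077). S100a10, the partner of annexin A2, fell by 0.94 ± 0.20 (1.91-fold, adjusted p = 0.015), while a further probe set of it stood at 0.12. Krt6a had signals of 17239.5, 13442 and 15353 against 48307, 13297 and 19675, which overlapped, with a change of 0.61 ± 0.37 (adjusted p = 0.34) and a further probe set at 1.79 (adjusted p = 0.059), and Sprr1a, an envelope precursor, changed by 0.85 ± 0.33 (adjusted p = 0.12). Both were already above their 0 hours arrays at 2 hours, as Krt6a stood at 3330.0, 6208 and 5342 and Sprr1a at 1059.8, 2355 and 2548 at 0 hours, and Sprr1a at 6086, 7149 and 5481 at 2 hours. The stress keratin Krt17 rose by 1.10 ± 0.25 (adjusted p = 0.018), with a further probe set at 0.77 that was not called, and Sprr1b by 1.52 ± 0.34 (adjusted p = 0.017), with a further probe set of Sprr1b at 3.87. Krt17, Sprr1b and S100a10 lost their call without 2 hours replicate 3 or 14 days replicate 1 (0.052 to 0.082), Krt17 also without 2 hours replicate 2 (0.069), Sprr1b without 2 hours replicate 1 (0.054) and S100a10 without 14 days replicate 2 (0.051). Gjb2 and Klk6 kept theirs under the Gapdh covariate.

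The 14 days replicates differed from each other in a way that cut across these groups. Over all 250 risers, replicates 1, 2 and 3 were the highest in 130, 61 and 59. Over all 177 fallers they were the lowest in 99, 53 and 25, so replicate 1 was often the most extreme beyond the lists as well. Replicate 1 was the highest of the 3 in 9 of the 9 risen wound keratinocyte genes and in 13 of the 14 risen matrix genes, and the lowest in 12 of the 15 risen hair genes. Replicate 3 was the highest in 14 of the 15 risen hair genes, and the lowest in 13 of the 14 risen matrix genes and 13 of the 18 risen cell cycle genes. Replicate 2 was the lowest in 7 of the 7 risen barrier genes and in 8 of the 9 risen wound keratinocyte genes. The mean log2 signal of the risen hair genes was 9.83, 10.37 and 11.11 in replicates 1, 2 and 3, and that of the risen wound keratinocyte genes 13.69, 11.98 and 12.44. Every 14 days replicate was higher than every 2 hours array in Krt71, Krt25, Krt27 and S100a3, but the rule that named the largest rises required this. Whether the 14 days samples held different amounts of wound and of follicle was not tested.

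**Figure D4:**
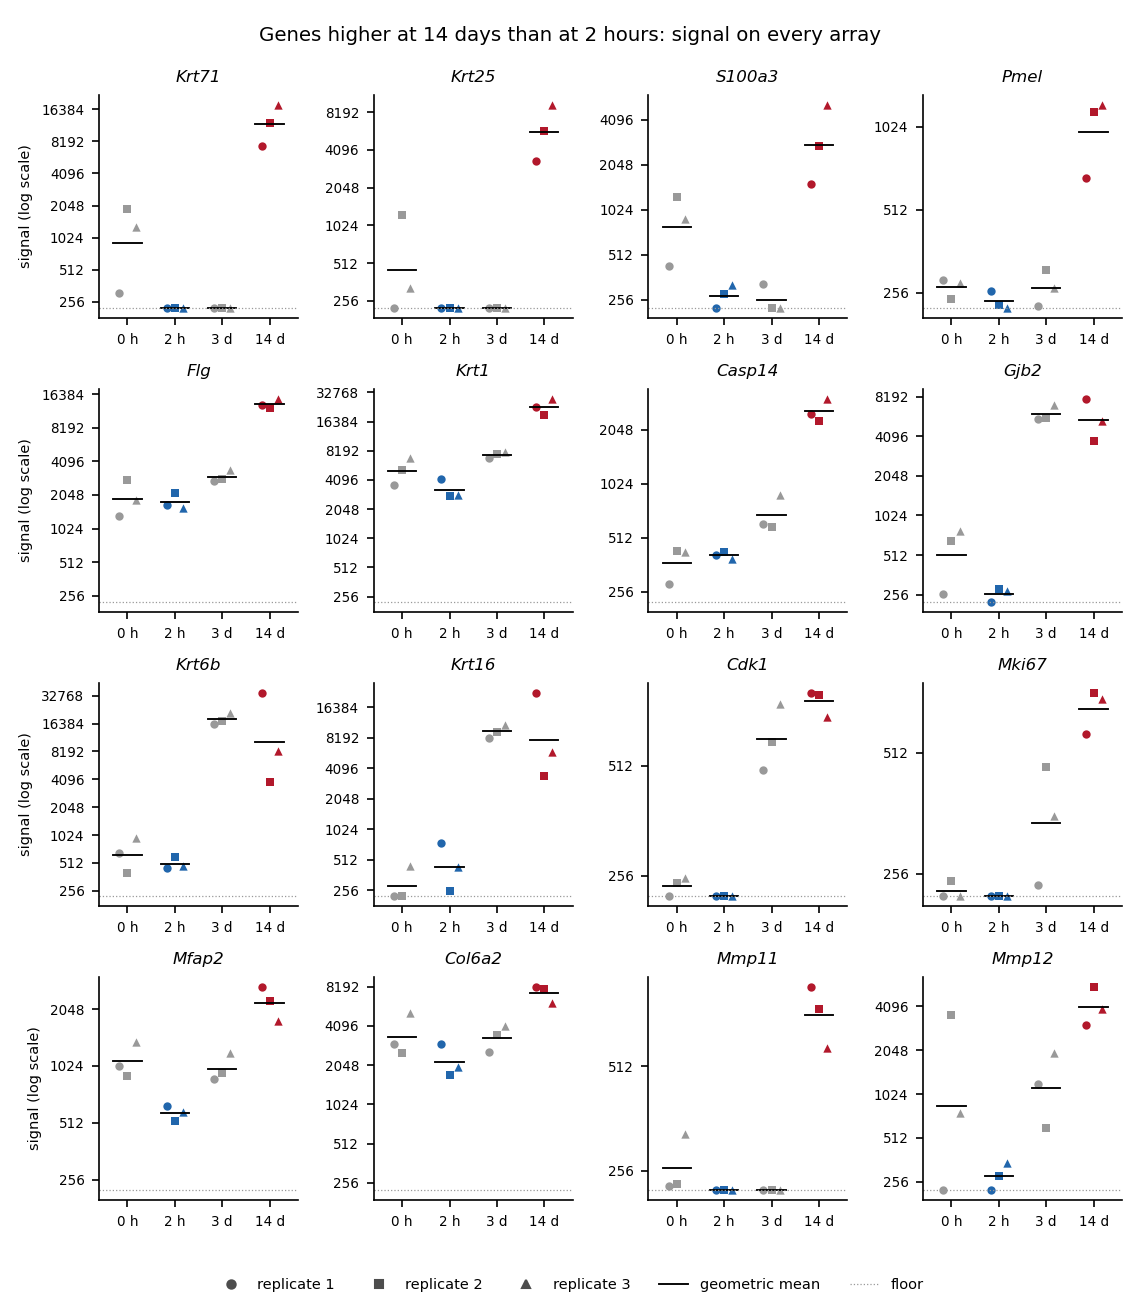
Deposited signal (vertical axis, log scale, set to the floor where lower) of 16 genes that rose, on every array at 0 hours, 2 hours, 3 days and 14 days (horizontal axis), with a symbol for each replicate number, a bar for the geometric mean and a dotted line for the floor of 225. Among the 14 days arrays (red), replicate 3 is highest for Krt71, Krt25 and S100a3 and replicate 1 for Krt6b, Krt16 and Mfap2. Gjb2, Krt6b and Krt16 are as high at 3 days as at 14 days, and Krt71 and Krt25 are at the floor at 2 hours and 3 days.

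Of 46 genes of the cell cycle and DNA replication tested, 18 were higher at 14 days, 28 were not called and none fell. Of the 46 changes 41 were positive and 5 negative, and the median was 0.551. Cdk1, the kinase that starts mitosis, was below the floor on all 2 hours arrays and had signals of 812, 802 and 698 at 14 days. It rose by 1.77 ± 0.17 on the log2 scale (at least 3.41-fold, adjusted p = 6.5e-05). Mki67, which codes for the proliferation antigen Ki-67, was also below the floor at 2 hours and had signals of 570.5, 722 and 696 at 14 days, a rise of 1.55 ± 0.22 (at least 2.92-fold, adjusted p = 0.0012), while a further probe set of it stood at −0.11. Cyclin genes rose with them, Ccna2 by 1.65 ± 0.23 (at least 3.13-fold, adjusted p = 0.0012) and Ccnb2 by 1.64 ± 0.26 (3.12-fold, adjusted p = 0.003). Rrm1, a ribonucleotide reductase subunit, rose by 1.21 ± 0.18 (at least 2.32-fold, adjusted p = 0.0015), the thymidine kinase Tk1 by 1.81 ± 0.27 (at least 3.52-fold, adjusted p = 0.0016), and the helicase subunit Mcm5 by 1.29 ± 0.22 (2.44-fold, adjusted p = 0.0038). Cdc20, an activator of the anaphase-promoting complex, rose by 1.70 ± 0.26 (adjusted p = 0.0023). The 8 genes named here kept their call with each of the 6 arrays left out in turn, and the list kept at least 13 calls. None kept its call under the Gapdh covariate.

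Matrix genes were higher at 14 days for 14 of 43 tested (32.6%, against 5.2% of all genes), and none fell, with a median of 0.344. The risers included genes of elastic fibres, of collagens V and VI and of proteoglycans. Mfap2, a protein of elastic microfibrils, had signals of 629.7, 526 and 583 at 2 hours and 2689, 2274 and 1776 at 14 days and rose by 1.94 ± 0.21 on the log2 scale (3.83-fold, adjusted p = 0.00016). Col6a2, a chain of the beaded-filament collagen VI, had signals of 2975, 1727 and 1991 at 2 hours and 8139.9, 7877 and 6082 at 14 days and rose by 1.75 ± 0.28 (3.37-fold, adjusted p = 0.0031). The other chains of that collagen rose as well, Col6a1 by 1.11 ± 0.18 (adjusted p = 0.0032), with a further probe set at 0.88 that was also called, and Col6a3 by 1.14 ± 0.22 (adjusted p = 0.0077). The proteoglycan Bgn rose by 1.61 ± 0.26 (3.06-fold, adjusted p = 0.003), with a further probe set at 0.40, and Col5a2, a chain that nucleates collagen I fibrils, by 1.37 ± 0.27 (2.58-fold, adjusted p = 0.01). Eln, coding for elastin, rose by 1.27 ± 0.31 (adjusted p = 0.025) and lost its call without any array but 14 days replicate 3 (0.059 to 0.12). Without 2 hours replicate 2 the list had 8 calls, and it had none under the Gapdh covariate.

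Of the genes of the major fibrillar collagens, Col1a2 rose and Col1a1 and Col3a1 were not called on their brightest probe sets. Col1a1 had signals of 29062, 22804 and 28624 against 40385, 37829.5 and 33035, which did not overlap, with a change of 0.47 ± 0.17 that was not called (adjusted p = 0.11), and its further probe set stood at −0.29 (adjusted p = 0.37). Col1a2 had signals of 11591, 10884 and 10511 at 2 hours and 29712, 22968 and 18074 at 14 days and rose by 1.07 ± 0.18 on the log2 scale (2.10-fold, adjusted p = 0.0044), with a further probe set at 0.01. Col3a1 changed by 0.65 ± 0.22 on its brightest probe set (adjusted p = 0.089), while another probe set rose by 2.10 and another stood at 0.16, so its probe sets disagree. Sparc, a collagen-binding glycoprotein, had signals of 6216, 8114 and 7885 against 10749, 10218 and 8226 and changed by 0.39 ± 0.17 (adjusted p = 0.18). At 0 hours Col1a1, Col1a2 and Sparc were higher than at either time, with Col1a2 at 36884, 31068 and 32919.

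Of 14 matricellular proteins 2 rose and 3 fell. Tnc, the tenascin of healing wounds, had signals of 111, 53 and 271 at 2 hours and 2966, 1187 and 587 at 14 days, with 2 of the 2 hours arrays at the floor. It rose by 2.41 ± 0.49 on the log2 scale (at least 5.32-fold, adjusted p = 0.01), and by 1.80 without 14 days replicate 1, while a further probe set stood at 0.31. Postn, coding for periostin, had signals of 5357, 4171 and 4331 at 2 hours and 14069.6, 9989 and 8503 at 14 days and rose by 1.21 ± 0.33 (2.31-fold, adjusted p = 0.04). The fallers were Ccn2 and Ccn1, given above, and Tgfbi (−0.71 ± 0.18, adjusted p = 0.03). Of 16 genes of collagen processing, the collagen chaperone Serpinh1 (0.90 ± 0.25, adjusted p = 0.042) and the retrieval receptor Kdelr3 (1.44 ± 0.31, adjusted p = 0.014) rose. Postn lost its call without any 1 of the 6 arrays (0.05 to 0.16), and Serpinh1, Kdelr3 and Tgfbi without at least 3 of them (0.055 to 0.17), among them 14 days replicate 2 for each.

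Among 36 matrix proteases and inhibitors 9 rose and 3 fell, with a median of 0.308. Mmp12, the metalloelastase made by macrophages, had signals of 145, 280.1 and 346 at 2 hours and 3028, 5548 and 3909.5 at 14 days and rose by 3.85 ± 0.73 on the log2 scale (at least 14.4-fold, adjusted p = 0.0074). A further probe set of Mmp12 rose by 2.14, and at 0 hours the gene ran from below the floor to 3537. Mmp11, stromelysin 3 of stromal cells, was below the floor on all 2 hours and 3 days arrays and had signals of 868, 747 and 578 at 14 days, a rise of 1.68 ± 0.19 (at least 3.20-fold, adjusted p = 0.0002). Timp2, an inhibitor of metalloproteinases, rose by 1.72 ± 0.29 (at least 3.29-fold, adjusted p = 0.0042), the gelatinase Mmp9 by 1.72 ± 0.34 (at least 3.30-fold, adjusted p = 0.0091) and the membrane-bound Mmp14 by 1.28 ± 0.35 (adjusted p = 0.037). Prss23, a secreted serine protease, had signals of 1583, 1573 and 1751 at 2 hours and 699.9, 624 and 647 at 14 days and fell by 1.32 ± 0.21 (2.49-fold, adjusted p = 0.0024). Timp1 was higher on every 14 days array than on any 2 hours array, but its change of 1.31 ± 0.49 was not called (adjusted p = 0.11). Without 2 hours replicate 3 or 14 days replicate 1 the list had 4 risers. Mmp14 lost its call without any 1 of the 6 arrays (0.051 to 0.15), and no call of the list was kept under the Gapdh covariate.

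Other genes of the connective tissue gave single calls. Twist2, a transcription factor of dermal fibroblasts, rose by 1.85 ± 0.35 on the log2 scale (at least 3.6-fold, adjusted p = 0.0079), and Fstl1, a secreted glycoprotein, by 0.81 ± 0.21 (adjusted p = 0.035), while the smooth muscle myosin Myh11 fell by 1.23 ± 0.32 (adjusted p = 0.033). With Postn these were 3 risers and 1 faller of 36 fibroblast and myofibroblast markers, whose median was 0.13. The shares were 8.33% and 2.78%, against 5.2% and 3.68% of all genes. Of 24 endothelial markers 1, the transcription factor Sox18, rose (1.12 ± 0.30, adjusted p = 0.035), and its further probe set rose by 1.61. Sox18 made up 4.17% of the endothelial markers, no more than the 5.2% of all genes that rose. Of 40 growth factors and receptors 6 rose (15.0%, against 5.2% of all genes) and 1 fell (2.5%, against 3.68%). Igfbp2, a binding protein of insulin-like growth factors, had signals of 508, 357 and 508 at 2 hours and 1425, 1698 and 1502 at 14 days and rose by 1.77 ± 0.31 (3.41-fold, adjusted p = 0.0051). Its relative Igfbp3 went the other way, with signals of 3889, 3917 and 3492 at 2 hours and 1558, 1379.8 and 2597 at 14 days and a fall of 1.08 ± 0.24 (2.12-fold, adjusted p = 0.016), although a further probe set of it stood at 0.59. The Wnt receptor Fzd2 rose by 1.57 ± 0.36 (at least 2.97-fold, adjusted p = 0.017) and the heparin-binding factor Mdk by 1.20 ± 0.27 (adjusted p = 0.017). Without 2 hours replicate 2 only Igfbp2 of the risers kept its call. Fstl1, Sox18, Myh11, Igfbp3 and Mdk lost theirs without 14 days replicate 1 (0.072 to 0.13) and without at least 2 other arrays, and Fzd2 without 2 hours replicate 2 or 3 or 14 days replicate 2 (0.062 to 0.077).

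Of 45 genes of the secretory pathway and the unfolded protein response 5 rose (11.1%, against 5.2% of all genes) and none fell, with a median of 0.17. The translocon subunits Sec61b (1.14 ± 0.21, adjusted p = 0.0056) and Sec61a1 (0.69 ± 0.17, adjusted p = 0.029, further probe set not called at 0.28) and the disulfide isomerase Pdia6 (1.53 ± 0.28, at least 2.88-fold, adjusted p = 0.0068) rose, and a further probe set of Pdia6 rose by 0.96. Sec61a1 lost its call without any array but 2 hours replicate 1 (0.055 to 0.11). None of the 22 ribosomal protein genes tested was called, and their median was 0.016. Of 42 proteasome and ubiquitin genes, the proteasome subunit Psmd13 rose by 0.63 ± 0.16 (adjusted p = 0.026) and the deubiquitinase Usp2 fell by 0.82 ± 0.22 (adjusted p = 0.039), with a further probe set at −0.93 that was also called, both lost without 2 hours replicate 1 or 2 (0.065 to 0.083) and without at least 3 further arrays. Psmd13 and Usp2 were each 2.38% of the list, below the 5.2% of all genes that rose and the 3.68% that fell.

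Of 33 monocyte and macrophage markers tested, 5 were higher at 14 days (15.2%, against 5.2% of all genes) and none fell, with a median of 0.232. The complement subunit C1qa had signals of 2129.8, 546 and 837 at 2 hours and 3191, 3110.1 and 2916 at 14 days, and its 2 hours arrays were spread widely. It rose by 1.63 ± 0.42 on the log2 scale (3.10-fold, adjusted p = 0.03), but with the Gapdh ratio as a covariate its change was −0.08 (adjusted p = 0.99), and no call of the list was kept in that fit. The pore-forming protein Mpeg1 rose by 1.20 ± 0.30 (adjusted p = 0.026), the oxidase subunit Cyba by 0.97 ± 0.23 (adjusted p = 0.02, further probe set not called at 0.67), the protease Ctss by 1.13 ± 0.31 (adjusted p = 0.039) and the chemokine receptor Ccr2 by 0.81 ± 0.23 (at least 1.75-fold, adjusted p = 0.045). Lysozyme, Lyz2, changed by 0.70 ± 0.28 and was not called (adjusted p = 0.13), and the leukocyte antigen Cd53 changed by −0.03 ± 0.25 (adjusted p = 0.97). The summed signal of the macrophage list overlapped between the groups, from 56624 to 77232 at 2 hours and from 73076 to 84665 at 14 days, and Msr1, Ncf4, Aif1 and Clec4d were at the floor on all 6 arrays. All 5 calls were lost without 2 hours replicate 2 or 3 or 14 days replicate 1 or 2 (adjusted p 0.052 to 0.17), so this group rests on each of those 4 arrays. Of 6 neutrophil markers 1 rose (Mmp9) and 1 fell (Il1r2), and the calgranulin S100a8 had signals of 265, 1983 and 1019 against 6347, 685 and 1047, which overlapped, with a change of 1.03 ± 0.80 (adjusted p = 0.48).

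Fat cell genes were lower at 14 days where called. Of 22 adipocyte markers 3 fell (13.6%, against 3.68% of all genes) and none rose, and the median was −0.816. Adipoq, coding for the fat cell hormone adiponectin, had signals of 9131, 16833 and 12870.1 at 2 hours and 2221, 3254 and 4822 at 14 days and fell by 1.94 ± 0.45 on the log2 scale (3.84-fold, adjusted p = 0.019). The lipid droplet protein Cidec fell by 2.03 ± 0.56 (4.07-fold, adjusted p = 0.041), and Thrsp, an inducer of lipid synthesis, had signals of 3423, 3889 and 3145 at 2 hours and 715, 638 and 1034 at 14 days and fell by 2.16 ± 0.63 (4.46-fold, adjusted p = 0.05 after rounding). These genes also varied widely within 1 time point. At 0 hours Adipoq stood at 14373, 4940.5 and 4787, Cidec at 1651, 362 and 364, and Thrsp at 12167, 3137 and 2395. The summed signal of the list was 103365 to 141517 at 2 hours and 53253 to 75517 at 14 days, without overlap. Of 24 genes of fatty acid and sterol synthesis 3 rose (12.5%) and 1, Thrsp, fell (4.17%), with a median of 0.322. Scd2, a fatty acid desaturase, had signals of 1165, 1204 and 1196 at 2 hours and 2998, 2689 and 2967 at 14 days and rose by 1.28 ± 0.18 (2.42-fold, adjusted p = 0.0012), with a further probe set at 1.30, and the sterol synthesis enzymes Mvk and Mvd rose by 0.86 ± 0.19 and 0.88 ± 0.25 (adjusted p 0.016 and 0.042). The fatty acid synthase Fasn (−1.46 ± 0.49, adjusted p = 0.0792) and the desaturase Scd1 (−0.98 ± 0.30, adjusted p = 0.0602) had negative changes and were not called. The falls of Adipoq, Cidec and Thrsp were lost without 2 hours replicate 2 or 3 or 14 days replicate 1 or 2 (0.067 to 0.17), and in a fit of the 6 arrays alone 11 adipocyte genes fell. That fit called more probe sets lower in all, 340 against 195, so the 3.68% of all genes does not apply to it. Mvk and Mvd were lost without 2 hours replicate 3 (0.056 and 0.15) or 14 days replicate 1 or 2 (0.058 to 0.15).

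Skeletal muscle RNA was present on all arrays. The summed signal of 54 muscle genes was 397842 to 448791 at 2 hours and 211500 to 306588 at 14 days, without overlap, and the list median was −0.363. Of these genes 2 fell and 2 rose (3.7% each), against 3.68% and 5.2% of all genes, so calls were no more frequent than elsewhere. Tnnc2, the calcium-binding troponin of fast fibres, had signals of 12349.7, 14753 and 12790.0 at 2 hours and 4714, 4642 and 4906 at 14 days and fell by 1.48 ± 0.36 on the log2 scale (2.79-fold, adjusted p = 0.023). Cox7a1, the muscle form of a cytochrome oxidase subunit, fell by 1.45 ± 0.32 (2.73-fold, adjusted p = 0.015). Tnni1, the inhibitory troponin of slow fibres, went the other way, with signals of 73, 241 and 332 at 2 hours and 1790.1, 1870.4 and 614 at 14 days and a rise of 2.28 ± 0.54 (at least 4.85-fold, adjusted p = 0.022), as did Myl4, a myosin light chain of embryonic muscle (1.05 ± 0.29, adjusted p = 0.04, further probe set not called at 1.57). Ckm, the muscle creatine kinase, changed by −1.15 ± 0.42 (adjusted p = 0.1) and the actin Acta1 by −0.30 ± 0.20 (adjusted p = 0.39). In a fit of the 6 arrays alone 17 muscle genes fell and 5 rose. Over all probe sets that fit called 340 lower and 395 higher, against 195 and 295 in the fit of all arrays, so the shares above do not apply to it. The 4 calls were each lost without 14 days replicate 1 (0.072 to 0.13), Tnnc2 and Myl4 without any 1 of the 6 arrays (0.05 to 0.16), Cox7a1 also without 2 hours replicate 3 (0.062), and Tnni1 without any array but 14 days replicate 3 (0.056 to 0.098).

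Among 63 respiratory chain and citric acid cycle genes 56 had a negative change and the median was −0.455, but 2 fell in the fit of all arrays, Sucla2 (−0.88 ± 0.21, adjusted p = 0.023) and Dld (−0.85 ± 0.23, adjusted p = 0.037), against 21 in a fit of the 6 arrays alone. In the fit of all arrays 3.17% of the list thus fell, no more than the 3.68% of all genes. The fit of the 6 arrays alone called 340 probe sets lower in all, against 195, so its 21 falls cannot be set beside that 3.68%. Of 29 glycolysis and glycogen genes 3 fell (10.3%), Pdk4 as above, the glycogen enzyme Pgm1 (−1.11 ± 0.29, adjusted p = 0.03) and the phosphorylase kinase subunit Phkg1 (−1.02 ± 0.26, at least 2.03-fold, adjusted p = 0.026). Sucla2, Dld, Pgm1 and Phkg1 each lost their call without 2 hours replicate 2 or 3 or 14 days replicate 1 (0.069 to 0.13). With the muscle mean as a covariate the oxidative phosphorylation median was −0.23 and that of the adipocyte list −0.39, and 341 probe sets were called, 320 of them among the 490.

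Of 3 red cell genes tested 2, both globins, were lower at 14 days, against 3.68% of all genes, and the haem synthesis enzyme Alas2 was not called (−0.52 ± 0.19, adjusted p = 0.107). Hba-a1, an alpha globin, had signals of 19876, 29638 and 17383 at 2 hours and 10006, 6234 and 11068 at 14 days and fell by 1.30 ± 0.27 on the log2 scale (2.46-fold, adjusted p = 0.011). Hbb-b2, a beta globin, had signals of 3266, 4896 and 2533 at 2 hours and 1573, 1045 and 1518 at 14 days and fell by 1.34 ± 0.30 (2.53-fold, adjusted p = 0.017). Globin genes are near copies of each other, so their probe sets may share transcripts, and both calls were lost without 2 hours replicate 2 or 14 days replicate 2 (0.052 to 0.079). Of 23 genes of cell death and stress arrest, the inflammatory caspase Casp4 (−0.85 ± 0.23, at least 1.81-fold) and the p53 target Ccng1 (−0.93 ± 0.25) fell and Bak1, a pore-forming member of the Bcl2 family, rose (0.71 ± 0.21), with adjusted p of 0.036, 0.037 and 0.048, and each was lost without any of at least 5 of the arrays (0.057 to 0.16). The shares of this list were 8.7% fallen and 4.35% risen, against 3.68% and 5.2% of all genes.

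**Figure D5:**
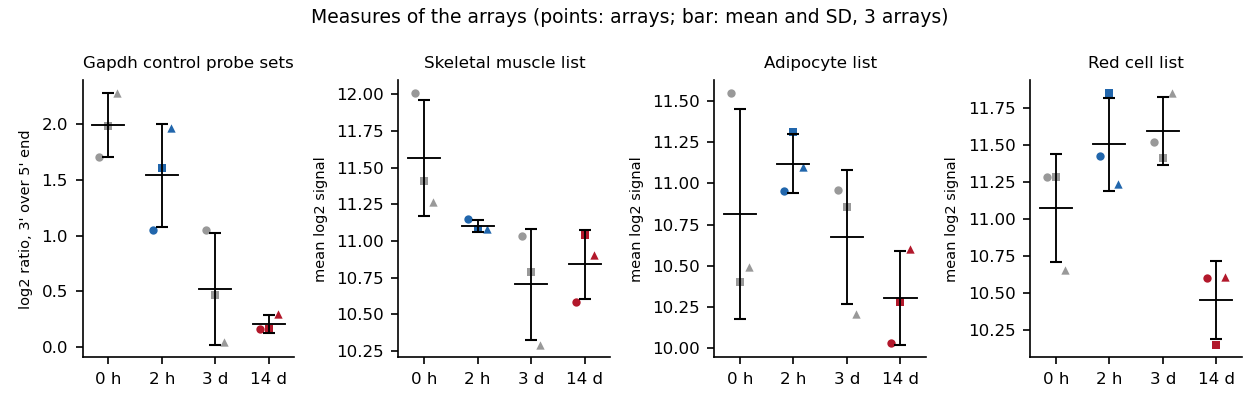
Measures of each array at 0 hours, 2 hours, 3 days and 14 days (horizontal axis): the log2 ratio of 3′ to 5′ Gapdh control signal, and the mean log2 signal of the skeletal muscle, adipocyte and red cell lists (vertical axes). Points are arrays, and bars are the mean and SD of 3 arrays. The Gapdh ratio is 1.54 ± 0.46 at 2 hours and 0.21 ± 0.08 at 14 days. The skeletal muscle, adipocyte and red cell means are lower at 14 days on every array than on any 2 hours array, for muscle narrowly (at most 11.039 against at least 11.078).

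The other time points place these differences in time, as a description. For the 177 genes that fell, the 0 hours mean was nearer to 14 days than to 2 hours in 107 (60.5%), and for the 250 that rose in 64 (25.6%), against 47.4% of all genes. The 0 hours mean lay between both time points for 126 of the fallers and 185 of the risers, below both for 34 fallers and 50 risers, and above both for 17 and 15. The 3 days mean was nearer to 14 days for 68.4% of the fallers and 64.8% of the risers, against 60.5% of all genes. Hspa1a, Hsp90aa1 and Hsph1 had thus left their 2 hours level by 3 days, at 11.08, 11.36 and 9.48 on the log2 scale, whereas Ccl2 at 10.85 and Ccl7 at 9.98 were still near it. Among the risers, Gjb2, Krt6b and Krt16 had reached or passed their 14 days level by 3 days (12.56, 14.15 and 13.21), while Krt71, Krt25 and Krt27 were at the floor of 7.82 at 3 days and rose only after it. Other risers were low at 2 hours but near their 14 days level at 0 hours. Mmp14, Serpinh1, Kdelr3, Scd2 and Tnni1 had means of 11.61, 12.26, 9.97, 11.59 and 10.02 at 0 hours. At 14 days these were 11.73, 12.46, 9.81, 11.49 and 10.31.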

How the data were processed

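Each deposited value is a linear signal intensity of 1 probe set on 1 array, with no detection call. Software and scaling: not given in the sources used here. Groups and replicate numbers came from the labels. Of 7275 probe sets 27 were controls, and GEO's platform annotation names exactly 1 gene for 6551 (5599 genes), several for 251 and none for 446. The 2% trimmed means of the arrays deviated by at most 8.556% (limit 10%), so no rescaling was done. A floor at the pooled 25th percentile (225.375) was applied before taking log2, and probe sets above the floor on at least 3 of 12 arrays were tested.

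All 12 arrays were fitted in limma 3.58.1 (R 4.3.3), 1 coefficient per time point, with Benjamini-Hochberg adjustment over 5467 probe sets, 8 residual and 5.1 prior degrees of freedom. Called means an adjusted p under 0.05. Genes were read from their brightest probe set by mean log2 signal over all 12 arrays. Errors after ± are SE unless SD is named. Array number limits precision.

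The members, the 38 gene lists (1617 entries, 1072 with a probe set, 870 genes tested) and the tests were chosen with earlier results of these data known. Named genes are the 12 largest rises and falls without overlap and up to 4 called members with the smallest p per list. Others were named after their values were seen. Alternatives were scaling, floor, filter, variance prior, array weights, covariates, a replicate block and each array left out. The fit was tested on simulated data. Arrays of equal replicate number were not treated as pairs, and the labels do not say whether they are. Tables and figures used Python 3.11.15, pandas 2.3.3 and matplotlib 3.10.9.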

Additional observations from a re-analysis of the deposited data

How the results depend on the processing

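The 490 calls kept their direction under every alternative in which they were tested, except for 7 under the Gapdh ratio covariate, where 483 kept it. The number called was within 1.5 times of 490 under quantile normalization (503), median scaling (474), both other floors (450 and 476), no filter (418), a filter at the pooled median (488), 1 probe set per gene (430), trended and robust variance priors (509 and 494), the muscle covariate (341) and the fit of only 2 hours and 14 days (735). Array weights gave 1010 calls, 558 higher and 452 lower, with 281 called list genes in place of 165. The Gapdh covariate left 19, 9 higher and 10 lower, with 17 list genes. The fit of only 2 hours and 14 days gave 340 lower calls in place of 195, and 250 list genes. Without 1 of the 6 compared arrays there were 190 to 365 calls, 121 to 221 higher and 63 to 144 lower, with 90 to 146 list genes. Without 0 hours replicate 3, which stands furthest apart from the other arrays, there were 650 calls, 390 higher and 260 lower, with 202 list genes, and 489 of the 490 were among them. The cause of these moves was not tested.

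The replicate block gave 388 calls (243 higher, 145 lower, 379 shared with the 490, 144 list genes). The pairing check found that 2 of 18 same-numbered pairs had a correlation of deviations over 0.1 (median −0.054), and of the 3 pairs between 2 hours and 14 days none did (0.026 to 0.074), so the block was not used. With so few arrays per group, the check cannot show that the arrays were unpaired.

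The sign turned for C1qa (−0.08), Hspa5 (−0.27) and Lyz2 (−0.07) under the Gapdh covariate. Krt10, at −0.02, became 0.16 under quantile normalization, 0.22 under the Gapdh covariate and 0.03 under the muscle covariate, and ranged from −0.18 to 0.07 with an array left out. Cd53, at −0.03, ranged from −0.18 to 0.19 with an array left out, and was above 0 without 2 hours replicate 1 (0.19) and 14 days replicate 2 (0.01). The cause was not tested. Signals at the floor of 225 have no order, so changes of genes at the floor in 1 group are lower bounds, and their SE leaves out the spread below the floor.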
